A study of Mus with 4 samples.

Results

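The data described here are the m6A peaks on 10 genes that encode m6A reader proteins, taken from 2 deposited peak lists of interscapular brown adipose tissue (iBAT). The members were every entry whose gene name was *Ythdf1*, *Ythdf2*, *Ythdf3*, *Ythdc1*, *Ythdc2*, *Igf2bp2*, *Igf2bp3*, *Hnrnpa2b1*, *Hnrnpc* or *Fmr1*. This rule selected 19 of 18400 peaks in the list of *Wtap* flox/flox mice, called control here, and 23 of 18693 peaks in the *Wtap*-BKO list, on 8 of the 10 genes. All mice were C57BL/6, 8 weeks old and on normal chow. The control mice carried floxed *Wtap* alleles, and the *Wtap*-BKO mice carried the same alleles together with UCP1-iCre, a recombinase driven from the *Ucp1* promoter, which is active in brown adipocytes. Other cells of the tissue, such as immune and vascular cells, are not targeted by this driver, and the labels list no UCP1-iCre in the controls. MeRIP-seq sequences the RNA fragments that an m6A antibody precipitates (IP) beside the fragments before precipitation (input), and peaks mark stretches of a transcript that the IP enriched. There were 4 samples, 1 IP and 1 input per genotype, each pooled from 8 mice.

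WTAP is a subunit of the methyltransferase complex that places m6A on mRNA, and reader proteins are those that bind the mark and decide what happens to the marked transcript. The YTH family holds m6A in an aromatic pocket of its YTH domain, whereas the IGF2BP, hnRNP and FMRP proteins bind marked RNA through other RNA-binding domains or because the mark opens the RNA structure. The question followed here is whether the transcripts that encode the readers carry m6A themselves in brown fat, and whether their peaks were still called after *Wtap* was deleted in brown adipocytes.

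With 1 pooled sample per genotype there were no replicates, so no difference between the genotypes was tested. A peak that is missing from a list only failed the authors' threshold there. Because read totals are not given with the peaks, the depth is unknown, and so is how much of each transcript was present. The strength of a peak is given as the share of all peaks in its own list with a weaker false discovery rate (FDR), and the fold enrichment of IP over input is ranked in the same way, since the 2 lists were called separately and share no scale. Positions are those of GRCm38, counted from 1, and all 19 control and 23 *Wtap*-BKO reader peaks lay inside their genes in the RefSeq table of that build. *Wtap* itself had 4 peaks in each list, which do not measure its transcript. All 10 brown adipocyte markers examined had a peak, 9 of them in both lists and *Elovl3* in control only. The brown adipocyte markers had 24 control and 20 *Wtap*-BKO peaks, without a common direction. *Prdm16* had 8 and 1 and *Elovl3* 2 and 0. *Ucp1* had 1 and 2, *Ppargc1a* 3 and 4 and *Pparg* 1 and 4, and the remaining markers had equal counts. Macrophage markers, 5 of 6 with a peak and *Adgre1* without one, had 5 control and 11 *Wtap*-BKO peaks. Lymphocyte markers had 0 and 3, with none on *Cd3e*, and skeletal muscle markers, 7 of 8 with a peak, had 3 and 10. Counts of called peaks measure neither the cells of a type nor their RNA. In pooled tissue, differences in cell number, in RNA per cell and in methylation cannot be told apart. The part of any of them in the reader peaks was not tested.

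Reader transcripts carried peaks in both genotypes. Of the 10 genes, 7 had a peak in both lists, 1 (*Igf2bp2*) had one in control mice alone, and 0 in *Wtap*-BKO mice alone. Among the 8 readers with any peak these were 87.5%, 12.5% and 0%. Of 10105 gene symbols in the lists, 73.3% had a peak in both, 13.5% in control only and 13.2% in *Wtap*-BKO only. *Ythdc2* and *Igf2bp3* had no listed peak in the files used here. Of the 19 control reader peaks, 3 shared not even 1 exonic base (a base inside the blocks of a peak) with a *Wtap*-BKO peak of the same strand (15.8%), where 32.2% of all control peaks had none. Of the 23 *Wtap*-BKO reader peaks, 5 had no control peak on them (21.7%), where 32.0% of all *Wtap*-BKO peaks had none. The shares found, 84.2% (95% Wilson interval 62.4% to 94.5%) and 78.3% (58.1% to 90.3%), have intervals that include those of the whole lists, 67.8% and 68.0%, so the reader peaks were not set apart by this measure. The intervals treat peaks as independent, which several peaks of 1 gene are not, and cover counting error only.

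**Figure D1:**
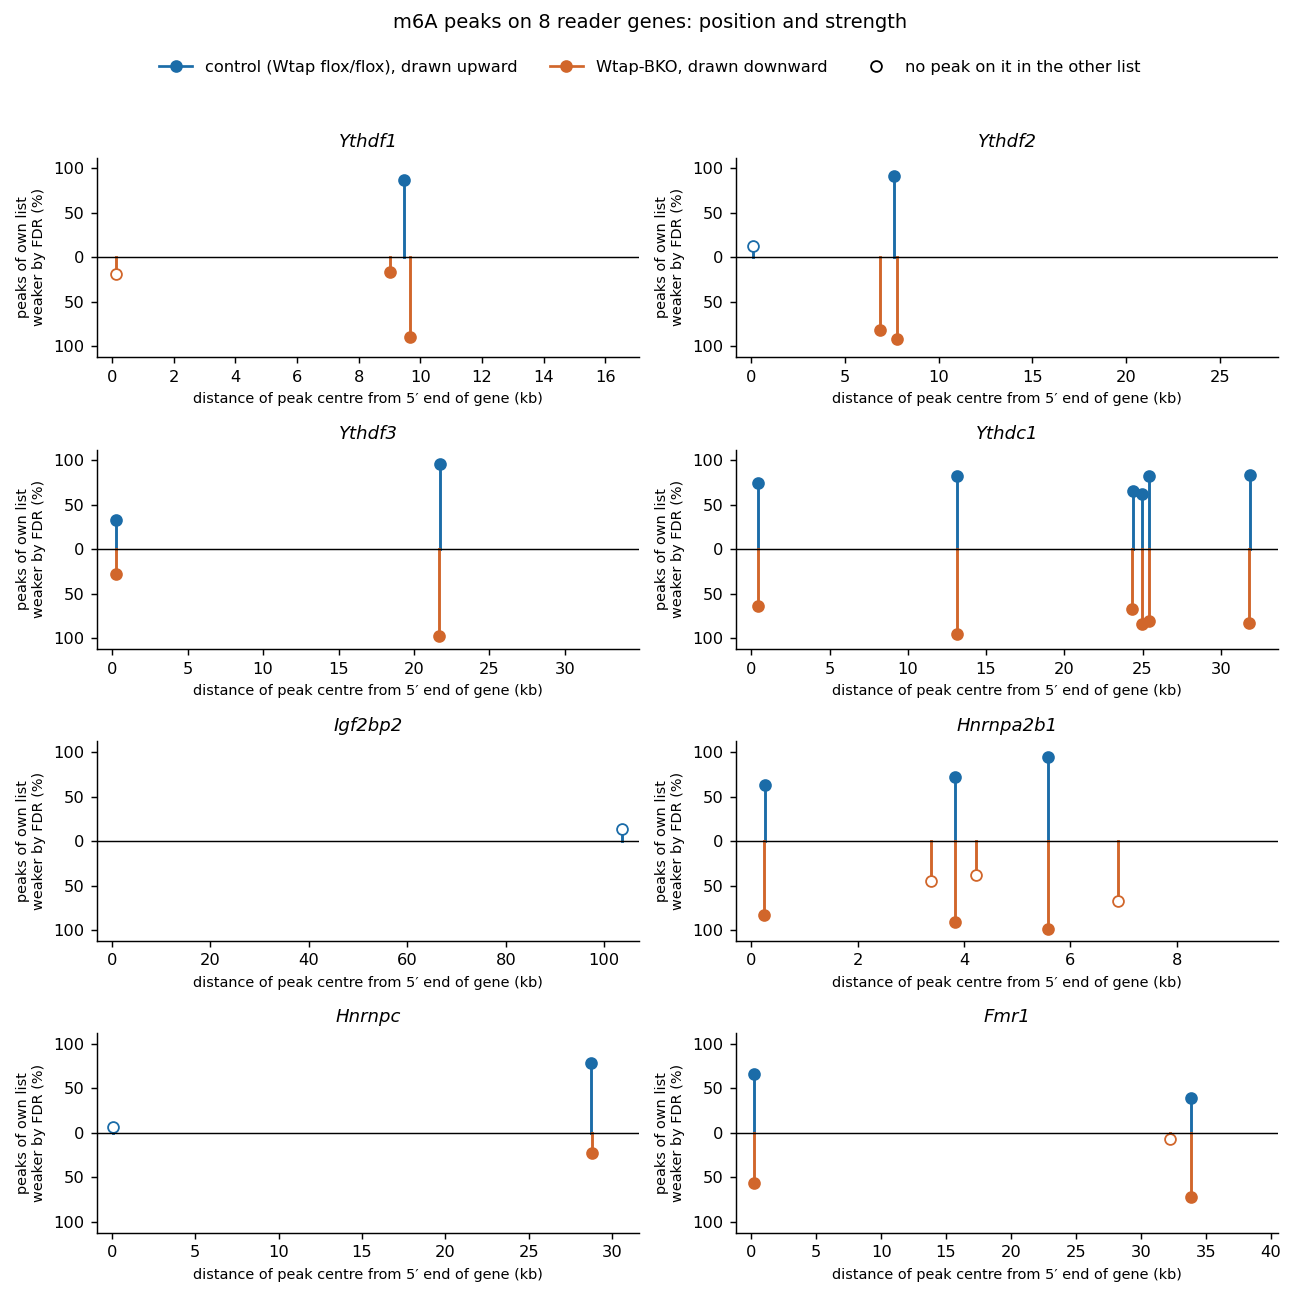
Each stem is 1 m6A peak, placed by the distance of its exonic centre from the 5′ end of the gene (kb), with a height equal to the share of peaks in its own list that have a weaker false discovery rate (%). Control peaks point up and *Wtap*-BKO peaks point down, and the open circles are the 3 control and 5 *Wtap*-BKO peaks without a peak on them in the other list.

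The cytoplasmic YTH readers YTHDF1, YTHDF2 and YTHDF3 differed from the other members in carrying 1 very long peak each. YTHDF2 is best known for bringing the CCR4-NOT deadenylase to marked transcripts, YTHDF1 for promoting their translation, and YTHDF3 for working with both. In control mice the long peak covered 1434 exonic bases on *Ythdf1*, 1554 on *Ythdf2* and 1738 on *Ythdf3*. In *Wtap*-BKO mice the longest peak on the same genes covered 1016, 1167 and 1618 bases. Each of the 3 genes had exactly 1 peak of at least 1000 bases in each list, and no other reader gene had one. Peaks of that length made up 2.09% of all control and 1.62% of all *Wtap*-BKO peaks.

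*Ythdf1* (ENSMUSG00000038848, minus strand of chromosome 2, gene from 180904377 to 180920936) had 1 control peak, from 180910739 to 180912172. Its log10 FDR was -42.9, stronger than 87.3% of the control peaks, and its fold enrichment was 6.90. Over the same stretch the *Wtap*-BKO list had a peak from 180910769 to 180911784 and a separate short one from 180911874 to 180911993. The longer had a log10 FDR of -34.1, stronger than 88.9% of that list, and a fold enrichment of 3.90. The shorter one was weak, at -2.80, stronger than 16.8% of its list. By FDR the strongest *Ythdf1* peak thus had nearly the same rank in both lists, while by fold enrichment it stood above 51.9% of the control and 41.5% of the *Wtap*-BKO list. The stretch was called in 2 pieces in *Wtap*-BKO mice, which together covered 79.2% of the control peak. Another *Wtap*-BKO peak, from 180920740 to 180920889, had its centre 121 bp from the 5′ end of the gene, a log10 FDR of -2.88 and no control peak on it.

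*Ythdf2* (ENSMUSG00000040025, minus strand of chromosome 4, gene from 132184916 to 132212256) had 2 peaks in each list. The long control peak consisted of a block from 132204132 to 132205442 and a block of 243 bases from 132186705 to 132186947. Its log10 FDR was -57.9, stronger than 91.0% of its list, and its fold enrichment of 15.1 stood above 85.0% of the list. In *Wtap*-BKO mice the same stretch carried a peak of 1167 bases with a log10 FDR of -44.6, stronger than 91.9% of that list, and a peak of 270 bases from 132205233 to 132205502, with -21.1. As on *Ythdf1*, 1 control peak lay under 2 *Wtap*-BKO peaks. By fold enrichment they stood lower in their own list, with 5.39 and 5.64, above 56.1% and 57.7% of the peaks. The second control peak, from 132212094 to 132212213, had its centre 102 bp from the 5′ end. It was weak, with a log10 FDR of -2.71, and had no *Wtap*-BKO peak on it.

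*Ythdf3* (ENSMUSG00000047213, plus strand of chromosome 3, gene from 16183148 to 16217037) differed least between the lists among the 3 paralogs, with 93.9% of its peak bases in both lists, against 71.7% for *Ythdf1* and 79.4% for *Ythdf2*. Its long control peak ran in blocks from 16203984 to 16205424 and from 16213955 to 16214251, with a log10 FDR of -103, stronger than 95.7% of the list, and a fold enrichment of 14.1. The *Wtap*-BKO peak on it began further in, at 16204014, and ended sooner, at 16214161, with a log10 FDR of -96.1, stronger than 97.3% of that list, and a fold enrichment of 14.9. All of its 1618 bases lay within the control peak. A second peak near the 5′ end, from 16183272 to 16183512, had the same first and last base in both lists, with log10 FDRs of -4.51 and -3.59. It was a weak peak in both, stronger than 33.4% and 28.0% of the peaks.

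**Figure D2:**
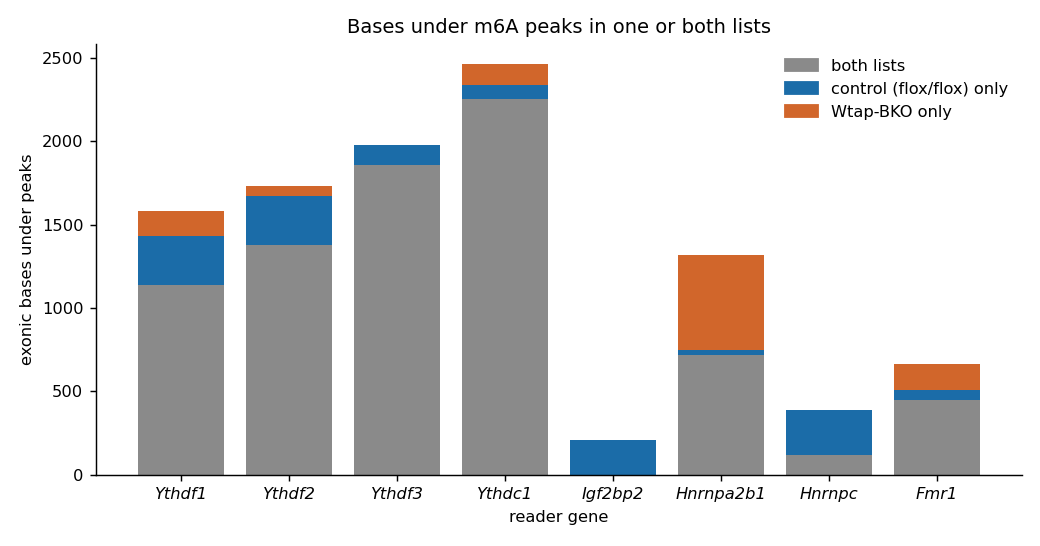
Bars give the exonic bases under m6A peaks on each of the 8 reader genes with a peak, divided into bases under peaks of both lists (grey), of control only (blue) and of *Wtap*-BKO only (orange). *Ythdc1* and *Ythdf3* have the largest grey parts, with 2251 and 1859 bases in both, *Hnrnpa2b1* the largest orange part, with 570, and *Igf2bp2* no grey part.

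YTHDC1, the nuclear YTH reader, acts on splicing and export of marked transcripts. *Ythdc1* (ENSMUSG00000035851, plus strand of chromosome 5, gene from 86803980 to 86836659) carried the most peaks of any reader in the control list, 6, and had 6 in the *Wtap*-BKO list as well. Each of the 12 shared bases with a peak of the other list, and all 12 had an FDR under 1e-05. Of the 2460 exonic bases under a peak in either list, 2251 (91.5%) were under a peak in both. The peaks spread over the whole gene, with centres from 0.451 kb to 31.8 kb from the 5′ end.

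Along *Ythdc1*, the peaks did not all shift rank in the same way. The first, in blocks from 86804221 to 86804591 and from 86806411 to 86806459, had the same blocks in both lists. Its fold enrichment was 44.2 in control mice, above 99.0% of the list, and 9.41 in *Wtap*-BKO mice, above 75.0%. The fourth went the other way. It ran from 86828787 to 86829086 in control mice, with a fold enrichment of 4.53, above 34.0% of the list, and from 86828757 to 86829086 in *Wtap*-BKO mice, with 43.2, above 99.4%. Fold enrichment divides by the input, whose reads are not in the lists. By FDR the same 2 peaks moved less, from 74.3% to 63.2% and from 62.1% to 84.4%.

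The other *Ythdc1* peaks were each stronger than at least 65.4% of their list. The second, from 86816931 to 86817320, had identical ends in both, with log10 FDRs of -31.0 (stronger than 82.0%) and -69.8 (stronger than 95.7%). A peak assigned to ENSMUSG00000105704 covers 176 of its bases on the same strand in each list, so its assignment to *Ythdc1* is uncertain. The next 3 lay close together between 86828039 and 86829535, and the last, in 2 blocks, ended at 86836060 in control and at 86835971 in *Wtap*-BKO mice. Apart from the fourth, these differed by at most 1.77 percentage points in FDR rank. The last was the only *Ythdc1* peak centred near the 3′ end of the gene, 838 bp from it in control and 898 bp in *Wtap*-BKO mice. *Ythdc2*, which encodes a helicase of the YTH family known for its role in germ cell meiosis, had 0 peaks in each list.

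IGF2BP proteins bind marked transcripts and protect them from decay. *Igf2bp2* (ENSMUSG00000033581, minus strand of chromosome 16, gene from 22059009 to 22163299) had 1 control peak, from 22059608 to 22059818, with its centre 704 bp from the 3′ end of a gene that spans 104 kb. It was the only reader gene with peaks in a single list. Its fold enrichment was 14.2, above 82.1% of the list, but its log10 FDR was -2.77, stronger than only 13.9%. *Igf2bp3*, its paralog on chromosome 6, had 0 peaks in each list.

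The peaks of the hnRNP readers differed between the lists in opposite directions. HNRNPA2B1 takes part in splicing and in the processing of primary microRNAs, and HNRNPC binds uridine tracts that m6A can make accessible. Both have processed copies elsewhere in the genome, and how reads that match several places were treated is not given in the sources used here. *Hnrnpa2b1* (ENSMUSG00000004980, minus strand of chromosome 6, gene from 51460434 to 51470048) had 3 peaks in control and 6 in *Wtap*-BKO mice. The bases under them went from 750 to 1291.

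All 3 control peaks of *Hnrnpa2b1* were found in the *Wtap*-BKO list. The strongest, in 4 blocks from 51463483 to 51464737 with 360 exonic bases, had identical blocks in both lists. Its log10 FDR was -91.2 in control mice, stronger than 94.9%, and -178 in *Wtap*-BKO mice, stronger than 99.0%. The peak from 51466121 to 51466300 was also identical in position, with -19.2 (72.3%) and -39.5 (90.7%). The peak nearest the 5′ end, centred 258 bp from it in control mice, had -12.8 (62.9%) and -22.8 (82.8%). Each of the 3 thus stood higher in the *Wtap*-BKO list, with a difference in FDR rank, control minus *Wtap*-BKO, of -4.12, -18.4 and -19.9 percentage points. By fold enrichment the differences had the same sign, at -15.9, -19.3 and -15.2.

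The other 3 *Hnrnpa2b1* peaks were in the *Wtap*-BKO list only. They lay from 51463034 to 51463273, in 2 blocks from 51465156 to 51465911 and in 2 blocks from 51466600 to 51466949. Their log10 FDRs were -11.5, -4.57 and -5.49, stronger than 67.2%, 38.1% and 45.0% of the list. Their fold enrichments were 1.47, 3.79 and 1.36, and the first and last of these were above only 1.45% and 0.637% of the list. No other reader peak had a fold enrichment as low as these 2.

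*Hnrnpc* (ENSMUSG00000060373, minus strand of chromosome 14, gene from 52073377 to 52104039) had 2 control peaks and 1 *Wtap*-BKO peak. The stronger control peak had 3 blocks from 52075076 to 52075614, 269 exonic bases, a log10 FDR of -25.5 (stronger than 78.3% of the list) and a fold enrichment of 4.69. The *Wtap*-BKO peak on it had 121 bases from 52075105 to 52075319, -3.15 (22.4%) and 1.56. It covered 45.0% of the control peak and stood 55.8 percentage points lower in FDR rank, and 33.3 lower in rank of fold enrichment. The other control peak, from 52103909 to 52104028, was centred 70 bp from the 5′ end. It had a log10 FDR of -2.24 and no *Wtap*-BKO peak on it. *Hnrnpc* had the lowest share of peak bases in both lists among the 7 readers with peaks in both, 31.1% of 389.

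FMRP, the product of *Fmr1*, binds mRNAs and controls their translation, and its loss causes fragile X syndrome. *Fmr1* (ENSMUSG00000000838, plus strand of chromosome X, gene from 68678536 to 68717963) had 2 control and 3 *Wtap*-BKO peaks. The first began at 68678631 in both lists. In control mice it had 271 bases, a fold enrichment of 28.9 (higher than 97.2% of the list) and a log10 FDR of -14.5. In *Wtap*-BKO mice it had 211 bases, 9.29 (higher than 74.8%) and -7.65. A peak in 2 blocks from 68712248 to 68713314 was identical in both lists, and its FDR rank went the other way, from -5.37 (39.3%) to -13.5 (71.5%). The remaining *Wtap*-BKO peak, from 68710667 to 68711888, was among the weakest of its list, at -2.15 (6.66%). So *Fmr1* showed no common direction over its peaks.

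Over all pairs of control and *Wtap*-BKO peaks of a reader gene that share bases, there were 18 pairs. They came from 16 control peaks, since the long control peaks of *Ythdf1* and *Ythdf2* each entered 2 pairs, so the pairs are not independent. By FDR rank 8 pairs stood higher in the control list (44.4%), where 46.5% of all 13357 such pairs did. By rank of fold enrichment the count was also 8 of 18, where 51.1% of all pairs did. All pairs of *Ythdf1* and *Ythdf2* were among these 8 by fold enrichment. In each ranking the other 10 pairs (55.6%) stood higher in the *Wtap*-BKO list, where 53.5% of all pairs did by FDR and 48.9% by fold enrichment. They were not the same 10 pairs. The longest pairs of *Ythdf1* and *Ythdf2* stood higher in *Wtap*-BKO mice by FDR only, and the 5′ pair of *Ythdf3* and the fifth *Ythdc1* pair by fold enrichment only. The reader peaks as a group thus stood near the background in both rankings. The pairs with the largest difference in FDR rank were the short *Ythdf1* piece (70.4 percentage points) and *Hnrnpc* (55.8), both higher in control mice. The *Ythdf1* piece has 120 bases and was set against the whole control peak of 1434, so this pair compares unlike lengths. Next came the *Fmr1* pair from 68712248 (-32.2) and the fourth *Ythdc1* pair (-22.4), both higher in *Wtap*-BKO mice. The long peaks of *Ythdf1*, *Ythdf2* and *Ythdf3* differed from their longest *Wtap*-BKO counterpart by -1.62, -0.944 and -1.63 points.

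**Figure D3:**
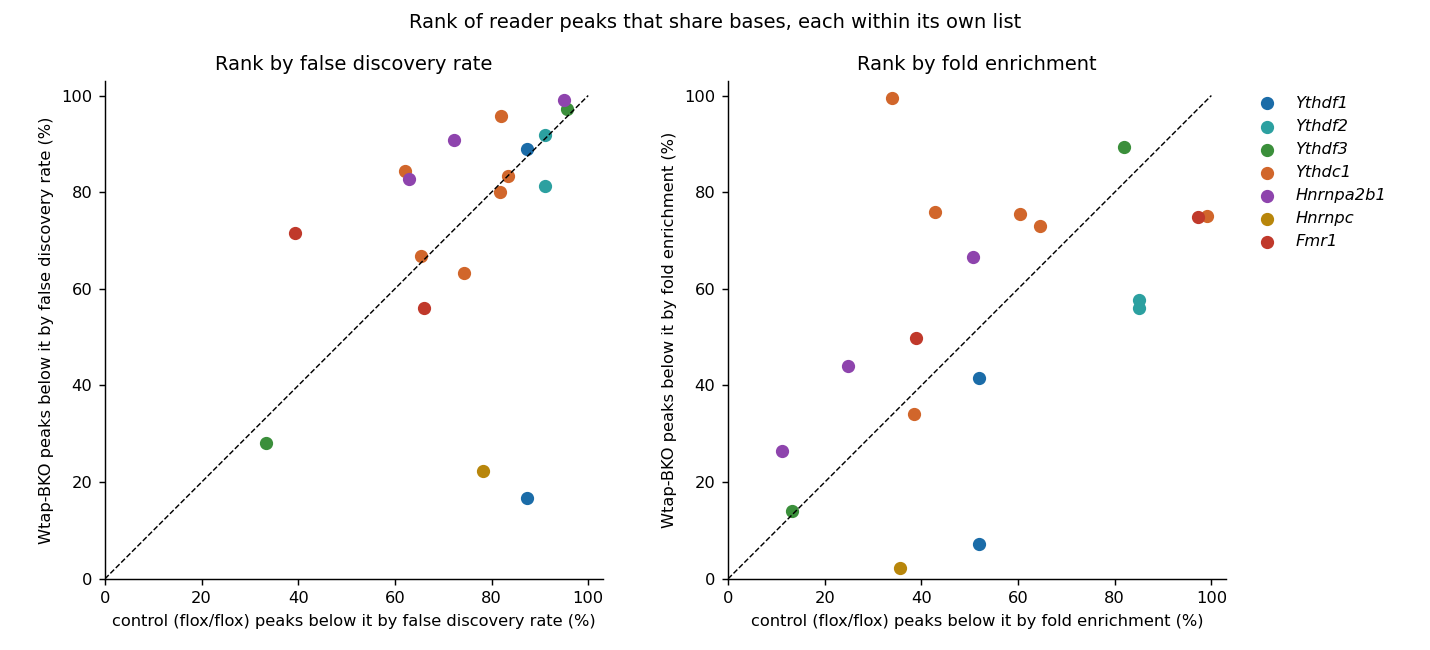
Each point is 1 of the 18 pairs of reader peaks that share bases, with its rank in the control list on the x axis and in the *Wtap*-BKO list on the y axis (% of the own list below it), by false discovery rate on the left and by fold enrichment on the right. Points above the dashed line of equal rank stood higher in *Wtap*-BKO mice, which 10 of 18 did in each panel, and the 3 *Hnrnpa2b1* points are above it in both.

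The boundaries of the reader peaks often coincided. In 7 of the 18 pairs (38.9%) every block began and ended at the same base in both lists, against 6.63% of all pairs. They were 1 pair of *Ythdf3*, 3 of *Ythdc1*, 2 of *Hnrnpa2b1* and 1 of *Fmr1*. The second *Ythdc1* peak, whose assignment is uncertain, is among them. Reader peaks were more often strong by FDR than all peaks, and the part of peak strength in this share was not tested. In 9 further pairs, among them all pairs of *Ythdf1* and *Ythdf2*, the control peak covered more bases. In 2 pairs the *Wtap*-BKO peak did, where these shares were 50.6% and 39.1% of all pairs. Summed over the readers, peaks covered 9288 exonic bases in control and 8967 in *Wtap*-BKO mice, and 7916 bases were in both. That is 85.2% of the control and 88.3% of the *Wtap*-BKO bases, beside 61.3% and 67.6% for all peaks of the lists. These totals weigh long peaks most, and *Ythdf1*, *Ythdf2*, *Ythdf3* and *Ythdc1* gave 1136, 1377, 1859 and 2251 of the 7916 bases. By gene, 31.1% of the control bases of *Hnrnpc* and 0% of those of *Igf2bp2* were in both. The other reader genes with a peak had 79.2% to 96.2%.

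The peaks that were not found in the other list were mostly weak. The 3 control peaks without a *Wtap*-BKO peak were stronger than 6.34%, 12.6% and 13.9% of their list, below each of the 16 found, which ranged from 33.4% to 95.7%. The 5 *Wtap*-BKO peaks without a control peak ranged from 6.66% to 67.2%, and the 18 found from 16.8% to 99.0%. With an FDR under 1e-05, 15 control reader peaks remained and 0 lacked a *Wtap*-BKO peak of any strength, where 20.4% of all such peaks did. Of 17 such *Wtap*-BKO peaks, 2 lacked a control peak (11.8%), where 15.4% of all did. Both were on *Hnrnpa2b1*. Under 1e-10, the *Hnrnpa2b1* peak from 51463034 was the 1 of 14 *Wtap*-BKO reader peaks without a control peak (7.14%), where 6.44% of all had none, and 0 of 14 control reader peaks lacked a *Wtap*-BKO peak, where 14.4% of all did. With the FDR under 1e-05 in both lists, 1 of 15 control peaks, that of *Hnrnpc*, and 2 of 17 *Wtap*-BKO peaks had no counterpart, where 33.8% and 28.1% of all had none. When at least 50% of a peak had to be shared, 4 of 19 and 5 of 23 were not found, beside 40.7% and 37.5% over the lists. By genes, 1 of 19 and 0 of 23 reader peaks lay on a gene without any peak in the other list, beside 11.8% and 11.1%.

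Several features of the reader peaks were not used to choose them. Peaks in 2 or more blocks, which the lists give as separate stretches with a gap between them, made up 8 of 19 control (42.1%, Wilson interval 23.1% to 63.7%) and 10 of 23 *Wtap*-BKO peaks (43.5%, 25.6% to 63.2%). Over the whole lists the shares were 15.4% and 19.8%. In the strongest 20% of each list by FDR lay 7 of 19 control and 11 of 23 *Wtap*-BKO reader peaks, where 19.9% of all peaks did in both lists. With an FDR under 1e-05 there were 15 of 19 control (78.9%) and 17 of 23 *Wtap*-BKO reader peaks (73.9%), where the whole lists had 63.1% and 58.4%. The coverage of each transcript is not in the lists, and its part in these shares was not tested.

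Reader peaks lay near the 5′ end of their genes more often than near the 3′ end, a comparison that was added after the values were seen. With their centre within 1000 bp of the 5′ end there were 6 of 19 control peaks (31.6%, 15.4% to 54.0%) and 5 of 23 *Wtap*-BKO peaks (21.7%, 9.66% to 41.9%), where the whole lists had 10.1% and 11.4%. Within 1000 bp of the 3′ end there were 2 (10.5%) and 1 (4.35%), where the whole lists had 21.5% and 19.2%. By gene, 6 of 8 readers with a control peak had one near the 5′ end, where 18.8% of all genes measured this way did. With a *Wtap*-BKO peak it was 5 of 7, where 21.5% did. Readers had more peaks per gene, which gives more occasions for a 5′ peak. The mean was 2.38 in control and 3.29 in *Wtap*-BKO mice, beside 1.95 and 1.99 over the named genes of the lists. The 7 readers with peaks in both lists each had a 5′ peak in at least 1 list. Of these, *Ythdf3*, *Ythdc1*, *Hnrnpa2b1* and *Fmr1* had it in both lists, *Ythdf2* and *Hnrnpc* in control only and *Ythdf1* in *Wtap*-BKO only. The 3 that were in 1 list only were all weak, with log10 FDRs of -2.71, -2.24 and -2.88. Distances refer to the ends of the gene spans in RefSeq, not to stop codons.

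**Figure D4:**
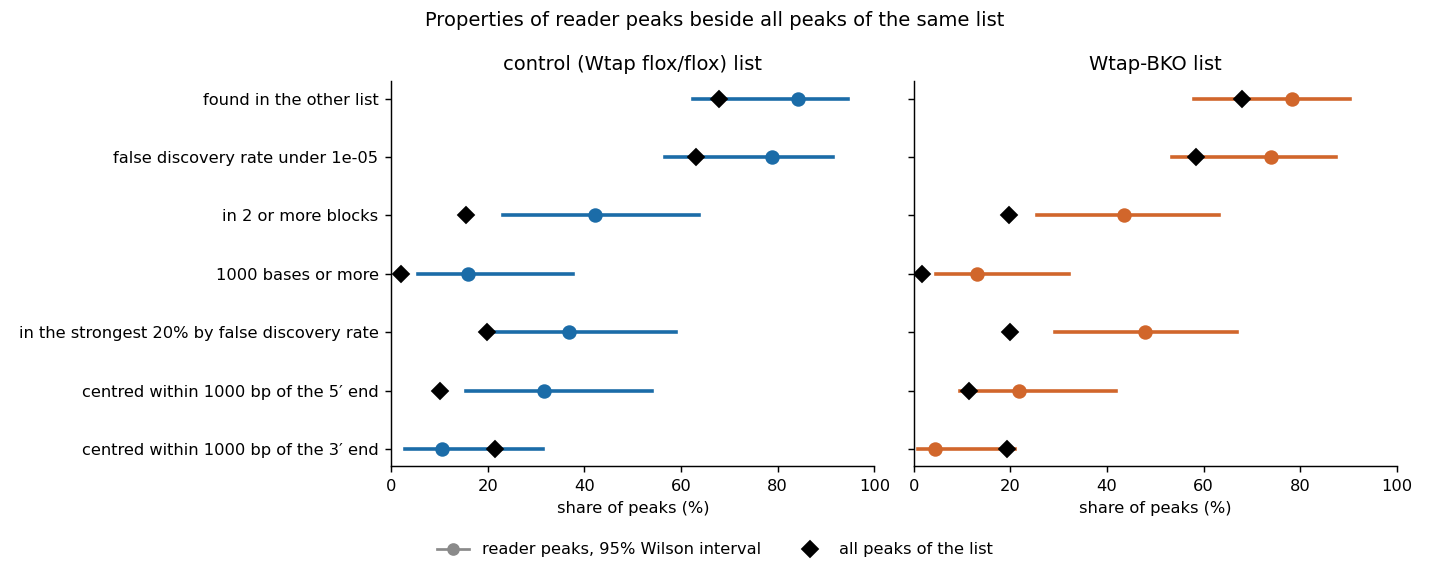
Circles give the share of reader peaks (%) with each property, with lines for the 95% Wilson interval, over 19 control peaks on the left and 23 *Wtap*-BKO peaks on the right, and black diamonds give the same share over all peaks of the list. Peaks in 2 or more blocks and peaks of 1000 bases or more are the properties for which the diamond lies outside the line in both lists.

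Other genes of the reader pathway were taken from 2 lists. Of 13 further proposed readers and relatives of the members, 9 had a peak, 8 in both lists, 1 in *Wtap*-BKO only and 0 in control only, where 73.3% of all genes with a peak had one in both lists. *Prrc2a*, which encodes a proposed reader, had 6 control and 2 *Wtap*-BKO peaks, and 3 of the 6 had no *Wtap*-BKO peak on them. The one gene with peaks in *Wtap*-BKO only was *Hnrnpa1*, a relative of *Hnrnpa2b1*, with 2. Of 18 control peaks on this list, 5 were not found in *Wtap*-BKO mice, and of 18 *Wtap*-BKO peaks 8 were not found in control mice, where 32.2% and 32.0% of all peaks were not found.

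Of 22 genes whose products readers recruit or work with, such as the CCR4-NOT subunits and UPF1, 20 had a peak and 17 of the 20 had peaks in both lists, beside the same 73.3% of all genes. Of their 31 control peaks 13 were not found in *Wtap*-BKO mice, and of their 32 *Wtap*-BKO peaks 14 were not found in control mice, beside 32.2% and 32.0% of all peaks. *Cnot1*, the scaffold of the deadenylase complex, had 1 peak and *Cnot3* had 3, all in *Wtap*-BKO only, while *Cnot6l*, which encodes a catalytic subunit, had 1 peak in control only. Each of these was weak to moderate, with its strongest peak stronger than 24.2%, 37.9% and 1.10% of its list.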

How the data were processed

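MeRIP-seq was performed on 4 samples of iBAT, 1 IP and 1 input per genotype, with paired reads of 150 bp. The processing notes of the submitters name fastp 0.19.11, BWA 0.7.12, HOMER 4.9.1 and GRCm38.p6, and the study's methods name MACS2 for peak detection, although spliced blocks on Ensembl genes are the layout of exomePeak. Which caller made the lists could not be settled. The deposited lists hold, for each peak, a p-value, 2 log10 scores (of this p-value and of the FDR), and a fold enrichment, which is the authors' ratio of IP over input within 1 genotype. The largest FDR was 0.0447 in the control (*Wtap* flox/flox) and 0.0479 in the *Wtap*-BKO list. An FDR given as 0 occurs for 147 and 83 peaks, which were ranked first, and none of them is on a reader gene.

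Peaks were matched by exonic bases on the same strand in Python 3.11.15 with numpy 2.4.6 and pandas 2.3.3, and drawn with matplotlib 3.10.9. On simulated copies of 18400 peaks the shared bases were right for all. Peak positions were set from the files' BED starts by adding 1. Distances from gene ends used peaks inside RefSeq gene spans of at least 3000 bp. The genes of 16620 control peaks were in that table, and 95.9% of these peaks lay inside the span. The members, gene lists and rules were chosen with earlier results of these data known. The rule for names covers all 10 readers, and from the lists of further readers and partners those with at least 4 peaks in a list or with peaks in 1 list only. Reader sequences were not used here.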

Additional observations from a re-analysis of the deposited data

How the results depend on the processing

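The share of reader peaks found in the other list was recomputed with 7 other rules. When any peak on the same gene counted, it was 94.7% for control and 100% for *Wtap*-BKO peaks. When only peaks with an FDR under 1e-05 were counted and searched among all peaks of the other list, it was 100% for control peaks, and under 1e-10, a limit added after the data were seen, it was 100% for control and 92.9% for *Wtap*-BKO peaks. The remaining rules, among them 50% shared bases (78.9% and 78.3%) and an FDR under 1e-05 in both lists (93.3% and 88.2%), stayed within the intervals of the reported shares. With the FDR under 1e-05 in both lists, however, the control interval (70.2% to 98.8%) lay above the share of all control peaks, 66.2%. The *Wtap*-BKO interval under this rule (65.7% to 96.7%) included the share of all *Wtap*-BKO peaks, 71.9%. With a window of 500 bp, the share of reader peaks near the 3′ end was 0% in both lists, where all peaks had 11.1% and 9.53%. With a window of 2000 bp it was 15.8% and 8.70%, where all peaks had 37.6% and 34.3%. Here the *Wtap*-BKO interval (2.42% to 26.8%) lay below the share of all peaks, unlike at 1000 bp. The reader shares near the 5′ end were the same with both windows. All peaks had 7.63% and 8.87% there at 500 bp, and 13.4% and 14.9% at 2000 bp. The 5′ windows and a search on either strand were also added after the data were seen. The counts of peaks, genes and pairs stayed within 1.5 times of those reported. Small numbers limit every share, since 1 peak is 1 of 19 or of 23. No paired analysis was possible because each genotype has 1 pooled sample, and no replicate could be left out.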
